A study of Drosophila melanogaster with 3 samples.

Results

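Hsf-GFP occupancy was examined at 6 Drosophila melanogaster genes that start or hold back apoptosis: rpr, hid, grim, skl, Diap1 and Dronc. The members were these named genes, and a region was counted for a gene when its summit lay in the gene or within 5 kb of either end. All 6 were found among 18164 annotated genes on 6 chromosome arms, and all lie on 3L. Their windows held 37 of the 30000 regions called on the pooled replicates.

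The measurement was chromatin immunoprecipitation and sequencing with an antibody against GFP, in embryos of a transgenic line that stably carries Hsf fused at its C terminus to GFP. Whole embryos aged 0 to 24 h, males and females together, made up the single group of 3 samples, which the labels call biological replicates. No heat treatment is named in the labels, a control experiment is named but not analysed here, and no contrast between groups exists. The fusion protein stands for the factor in this line, and a mixture of all embryonic stages and tissues cannot show in which cells a region was occupied.

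Hsf is the single heat shock factor of the fly. It binds inverted repeats of a short unit, the heat shock element, and drives chaperone genes during heat stress. In fly embryos, cell death is largely decided at the reaper family genes rpr, hid, grim and skl, whose proteins bind and antagonise Diap1, a ubiquitin ligase that holds caspases inactive. Once Diap1 is removed, the initiator caspase Dronc is free to activate effector caspases such as Drice. Regulatory DNA spread through the gene interval that holds the reaper family genes is known to control rpr and hid, including an enhancer upstream of rpr that responds to radiation through p53.

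Each region carries a signal, which is the authors' own peak score and serves here only to rank and describe regions within one list. Rank 1 is the region of highest signal. IDR (irreproducible discovery rate) asks whether regions rank alike between replicates. The 5756 pooled regions in the authors' optimal IDR list, all with a signal of 97.0 or more, are called optimal peaks. They were exactly the 5756 pooled regions of highest signal, so a region said to pass had a pooled signal above that limit. Being in the list does not show that a given region ranked alike in the replicates. The lists of replicates 1, 2 and 3 held 30000, 28225 and 30000 regions, with highest signals of 1229, 1403 and 1005 and lowest signals of 10.7, 10.3 and 10.5. No read counts come with these lists, and sequencing depth is therefore not known.

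Optimal peaks lay in the windows of 4 of the 6 genes, against 53.1% of all annotated genes, so having a peak did not set the group apart. By gene length, the shares were 46.8% of genes under 3 kb, the class of rpr, grim, skl and Dronc, and 71.2% of genes of 10 to 20 kb, the class of hid and Diap1. There were 8 in all, of which Diap1 held 5 and hid, rpr and Dronc held 1 each. The windows of grim and skl held none. Only the hid peak had its summit within 500 bp of a transcription start site (TSS) of its gene, which 21.5% of all genes have. With weaker regions counted too, hid and Diap1 had a pooled summit at a TSS, as 50.2% of all genes did. The DNA of 4 of these peaks is shown first, because they are the strongest peak at hid and Diap1, the sole optimal peak of rpr, and a further Diap1 peak with a motif match at its summit. All are on dm6 and are written on the minus strand, the strand of the genes, from 5′ to 3′.

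hid, chr3L:18185867-18186067, capitals mark a TATA box match: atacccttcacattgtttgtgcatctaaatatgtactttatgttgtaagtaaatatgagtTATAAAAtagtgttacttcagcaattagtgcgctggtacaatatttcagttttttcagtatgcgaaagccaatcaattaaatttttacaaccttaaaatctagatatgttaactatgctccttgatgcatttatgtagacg

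Diap1, chr3L:16046091-16046291, capitals mark the summit and 5 bases each side: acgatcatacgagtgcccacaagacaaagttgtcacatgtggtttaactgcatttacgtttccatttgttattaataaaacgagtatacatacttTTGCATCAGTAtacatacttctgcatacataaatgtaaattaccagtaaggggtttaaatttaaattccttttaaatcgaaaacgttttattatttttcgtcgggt

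Diap1, chr3L:16048207-16048407, capitals mark a TATA box match: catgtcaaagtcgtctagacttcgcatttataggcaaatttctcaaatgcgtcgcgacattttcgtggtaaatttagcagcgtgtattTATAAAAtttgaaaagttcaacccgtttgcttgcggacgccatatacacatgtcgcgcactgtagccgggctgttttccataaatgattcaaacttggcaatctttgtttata

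rpr, chr3L:18403247-18403474, capitals mark a p53 family element match with 2 mismatches: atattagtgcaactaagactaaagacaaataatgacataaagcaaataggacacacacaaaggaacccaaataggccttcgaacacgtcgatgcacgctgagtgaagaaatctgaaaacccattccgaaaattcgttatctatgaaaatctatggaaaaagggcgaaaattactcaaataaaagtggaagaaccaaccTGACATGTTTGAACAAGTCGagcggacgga

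None of these stretches overlaps an annotated UTR. All but the rpr stretch span 100 bp to each side of the summit, and the rpr stretch was extended to take in the match.

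hid encodes a mitochondria-associated antagonist of Diap1 and is the longest member, at 17.9 kb (chr3L:18167745-18185641, minus strand, FBgn0003997). Its optimal peak, chr3L:18185831-18186106, was intergenic and had its summit 326 bp upstream of the TSS. The pooled signal there was 437, rank 542 of 30000. Signals in replicates 1, 2 and 3 were 145, 164 and 119, at ranks 751, 473 and 554. All 3 replicates thus placed it high in their own lists, and it was among the 5756 strongest regions of each. Of the genes with any pooled region in their window, 11.3% had a stronger best region than hid. This share takes genes of all lengths together, whereas the hid window, at 27.9 kb, is long and has more room for a strong region.

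The other 12 pooled regions around hid were far weaker, and none was optimal. The strongest of them had a signal of 55.3 and lay 2157 bp upstream of the TSS, at rank 10723. Within the gene itself the 7 regions reached at most 38.5, at rank 16417 in an intron. The region just upstream of the start site was therefore far stronger than any other at hid, as the plot of pooled signal around each gene shows.

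**Figure D1:**
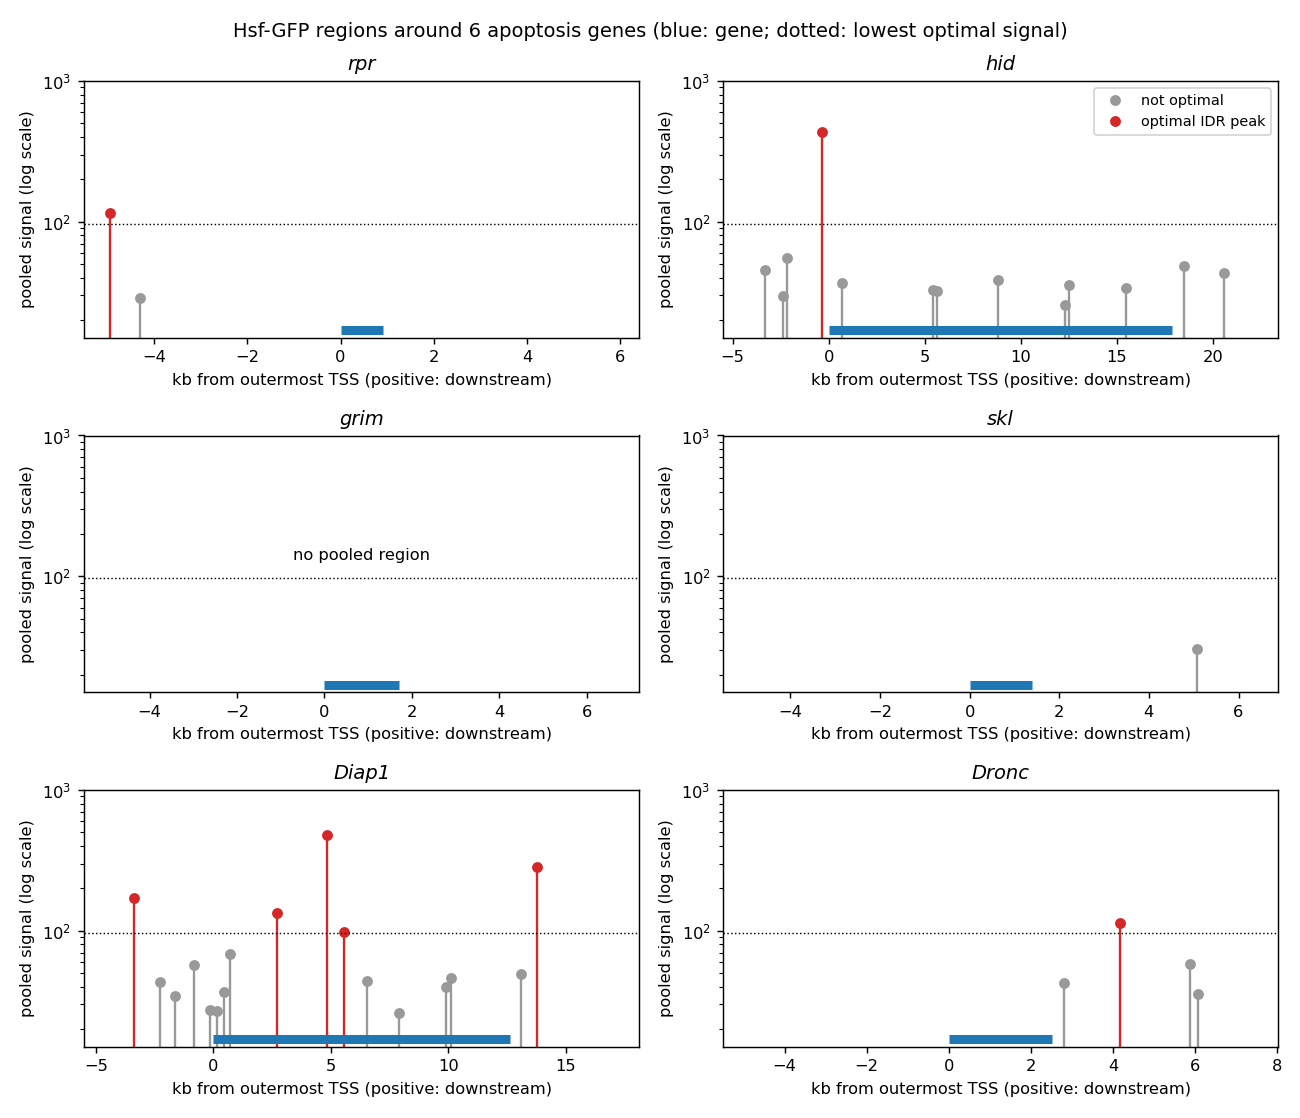
Pooled signal (log scale) of every candidate region against the distance in kb of its summit from the outermost TSS, 1 panel for each of the 6 genes; red points are optimal peaks, grey points the other regions, the blue bar is the gene and the dotted line is the lowest optimal signal, 97.0. hid has 1 tall peak at its start, Diap1 has 5 peaks spread along its window, and grim has no region.

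rpr encodes the founding member of the family, a short protein with an N-terminal motif that binds Diap1. The gene spans 0.901 kb (chr3L:18397535-18398435, minus strand, FBgn0011706), and no pooled summit lay in it. Its optimal peak, chr3L:18403166-18403581, was intergenic, with the summit 4939 bp upstream of the TSS and 61 bp inside the limit of the 5 kb window. The pooled signal was 115.4, rank 4646. Signals in replicates 1, 2 and 3 were 80.9, 29.7 and 15.4, at ranks 2186, 6084 and 15217.

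The replicates differed more in rank at this peak than at any of the other 7. Replicate 1 alone placed it among its 5756 strongest regions, and in replicate 3 the stronger of the 2 overlapping regions, to which the values above belong, had its summit beyond the window. The weaker one, inside the window 4555 bp upstream, had a signal of 11.2 at rank 26950. The only other pooled region of rpr lay 4291 bp upstream with a signal of 29.0, at rank 24129. Just outside the window, the next pooled region lay 6140 bp upstream with a signal of 66.5, at rank 8782, and was not optimal. At the rpr start site itself, replicate 1 listed a region 152 bp upstream (signal 20.4, rank 14255) and replicate 3 one 54 bp downstream (signal 22.6, rank 7903). Replicate 2 and the pooled list had none there, and about as much is usual: 51.0%, 43.2% and 48.2% of all genes had a summit within 500 bp of a TSS in the lists of replicates 1, 2 and 3.

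The p53 family element in the rpr peak, 20 bases made of a unit repeated end to end, was searched for after the values were seen. That search covered whole regions, not only the bases near the summit. With at most 2 mismatches, rpr was the only member with a match, chr3L:18403257-18403276, centred 107 bp from the summit. Such a match lay in 0.667% of all pooled regions and in 0.869% of optimal peaks. With 3 mismatches allowed, 5 of the 37 member regions held one, against 6.35% of all pooled regions. Whether the match is part of the known radiation enhancer was not tested.

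grim encodes another Diap1 antagonist of the family and lies between hid and rpr (chr3L:18302719-18304417, minus strand, FBgn0015946). No pooled region had its summit in its window, although 87.3% of all genes have at least 1. Replicates 2 and 3 listed none either, whereas replicate 1 listed 4. In the lists of replicates 1 and 3, 82.3% and 90.3% of all genes had a region in their window. The strongest of those lay 45 bp upstream of the TSS with a signal of 12.7, at rank 24785 of 30000, near the lowest signal of that list. The pooled summits nearest to the grim TSS were 13.9 kb and 19.2 kb away, which leaves a gap of 33.0 kb in the pooled list. The replicate lists had 10, 3 and 2 summits inside that gap in replicates 1, 2 and 3. The strongest in replicate 1 had a signal of 37.2 at rank 6835. Some of these summits lay close to the edges of the gap, the pooled summits at chr3L:18290565 and chr3L:18323583. The 2 in replicate 3 were at chr3L:18290570 and chr3L:18322323, so that list had none in the middle of the gap. Among the 29994 gaps between neighbouring pooled summits, 376 were as long or longer (1.25%), and the median gap was 1.81 kb. That share counts gaps, not genes. Longer gaps take up more of the genome, and this gap was picked because grim lies in it. The share of genes that lie in such gaps was not computed, so the 1.25% does not say how unusual grim is.

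skl, or sickle, encodes the fourth antagonist of the family (chr3L:18438561-18439942, minus strand, FBgn0036786). Its sole pooled region, chr3L:18434657-18435072, lay 3696 bp beyond the 3′ end of the gene with a signal of 30.4, at rank 22608. Replicate 3 listed a region there, at rank 19991, and the other replicates did not. Of the genes with any pooled region, 95.3% had a stronger best region. At the skl start site, replicate 1 listed a region with a signal of 27.3 (rank 10118) and replicate 3 one with a signal of 13.4 (rank 19592). Replicate 2 listed no region in the whole window, where 91.8% of genes had one in its list.

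Diap1, also called thread, encodes the inhibitor that the reaper family proteins bind (chr3L:16038410-16051034, minus strand, FBgn0260635). It has 6 annotated transcripts that start at 5 positions along its 12.6 kb. Its window held 17 pooled regions, 5 of them optimal, where the median gene of any length had 4 and 1. Some of the 17 overlap a neighbour, such as chr3L:16050095-16050510 and chr3L:16050372-16050787, so they are not all separate sites. Only 1.94% of all genes had 5 or more optimal peaks, and 6.43% of the 995 genes of 10 to 20 kb, the length class of Diap1, did.

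The strongest Diap1 peak, chr3L:16046037-16046346, lay in an intron, 655 bp downstream of the nearest Diap1 TSS and 4843 bp from the outermost one. It had the highest signal of all the member regions, 478 in the pooled list at rank 451. Signals in replicates 1, 2 and 3 were 228, 128 and 124, at ranks 287, 799 and 507. It stood among the 5756 strongest in every replicate. Over genes of all lengths, 9.51% of those with a region had a stronger best one.

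The next Diap1 peak, chr3L:16037123-16037322, lay 1170 bp beyond the 3′ end of the gene with a pooled signal of 286, at rank 1239. Signals in replicates 1, 2 and 3 were 129, 77.5 and 86.4, at ranks 963, 1814 and 1034. The nearest TSS to it, 1562 bp away, belongs to CG5895 rather than to Diap1. The peak at chr3L:16054185-16054600 also leaned towards a neighbour: it lay 3359 bp upstream of Diap1 in an intron of Mbs, which encodes the myosin-binding subunit of myosin phosphatase. Its pooled signal was 172, at rank 2763. Signals in replicates 1, 2 and 3 were 71.6, 53.5 and 41.8, at ranks 2652, 3075 and 3340. These peaks were again among the 5756 strongest in every replicate.

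The last pair of Diap1 peaks lay in its introns and was weaker. The peak at chr3L:16048099-16048514 had a pooled signal of 133, at rank 3927, and signals of 61.6, 39.8 and 27.2 in replicates 1, 2 and 3. The peak at chr3L:16045435-16045547 had a pooled signal of 97.2, at rank 5740 of the 5756 that passed, and signals of 45.2, 26.4 and 43.1. Each missed the 5756 strongest in 1 replicate: the former ranked 6042 in replicate 3 and the latter 6908 in replicate 2.

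None of the 5 optimal peaks sat within 500 bp of a Diap1 TSS. The strongest pooled region that did had a signal of 68.3, at rank 8539, and was 368 bp downstream of a start site. Its ranks in the 3 replicates, 7898, 7955 and 7818, were close together but below the 5756 strongest each time.

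Dronc encodes the initiator caspase that Diap1 restrains (chr3L:9968479-9971002, plus strand, FBgn0026404). No pooled summit lay within its 2.52 kb. Its optimal peak, chr3L:9972453-9972868, was 1659 bp beyond its 3′ end, in an intron of the overlapping genes CG42455 and vnc and 95 bp from a TSS of vnc, which encodes the catalytic subunit of an N-terminal acetyltransferase. The pooled signal was 113, at rank 4797. Signals in replicates 1, 2 and 3 were 46.3, 35.8 and 24.1, at ranks 5085, 4970 and 7178, so replicates 1 and 2 placed it among their 5756 strongest and replicate 3 did not. In replicate 3 the strongest region of the window was another one, 3360 bp beyond the 3′ end, with a signal of 32.0 at rank 4847. At the Dronc start site, replicate 1 alone listed a region, 38 bp upstream with a signal of 29.4 at rank 9251.

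**Figure D2:**
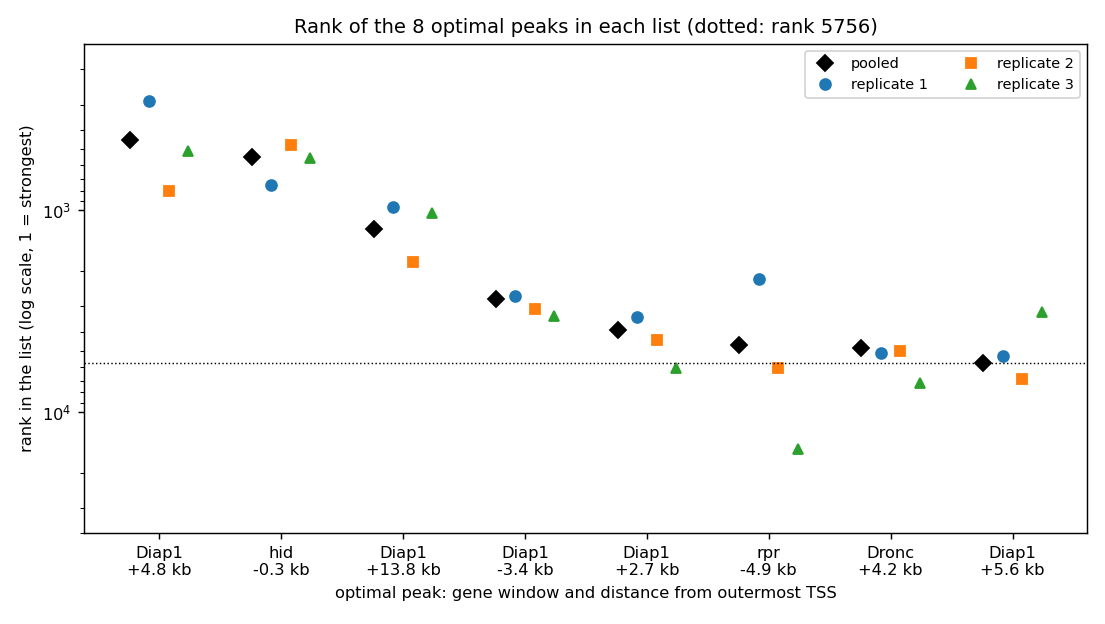
Rank (log scale, strongest at the top) of the 8 optimal peaks in the pooled list (black diamonds) and in the lists of replicates 1 (blue circles), 2 (orange squares) and 3 (green triangles), by gene window and distance from the outermost TSS; the dotted line is rank 5756. The rpr peak has the widest spread, from 2186 to 15217, and 4 peaks lie above the line in all 3 replicates.

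Across the windows, the 29 regions that were not optimal had signals from 25.8 to 68.3, with a median of 36.9, and ranks from 8539 to 28210. The 8 optimal peaks ran from 97.2 to 478. No member region therefore lay near the limit of the optimal list on its lower side, and the weakest Diap1 peak lay just above it. All 8 optimal peaks and none of the 29 others had the highest −log10 q value in the pooled list, 4.12. All 5756 optimal peaks had this value, as did 6603 pooled regions in all, so it adds nothing to the 8 being optimal.

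A region in each of the 3 replicate lists overlapped 15 of the 37 member regions by 1 bp or more, or 40.5%, against 43.4% of all pooled regions. Of the rest, 16 were overlapped in 2 replicates and 6 in 1. Neighbouring pooled regions can overlap each other and the same replicate region, so these counts are not of separate sites. All 8 optimal peaks were overlapped in all 3, as were 97.8% of optimal peaks in the whole list. The stricter condition of a rank within the strongest 5756 in every replicate held for 4 of the 8, namely the hid peak and 3 of Diap1, against 67.9% of all optimal peaks. Over replicates 2 and 3 alone it held for 4 peaks, over 1 and 3 for 5, and over 1 and 2 for 6.

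The replicates listed unequal numbers of regions in the windows: 49 in replicate 1, 25 in replicate 2 and 33 in replicate 3. Replicate 1 also listed the most regions that overlapped no pooled region, 16, against 1 and 9 in replicates 2 and 3. Those 16 were 4 at grim, 3 each at rpr, Diap1 and Dronc, 2 at skl and 1 at hid. The share of all regions in each replicate list that overlap no pooled region is not given here, so these counts have no background. Diap1 had the most regions in every list, with 20, 13 and 16 in replicates 1, 2 and 3, and hid followed with 12, 8 and 7.

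**Figure D3:**
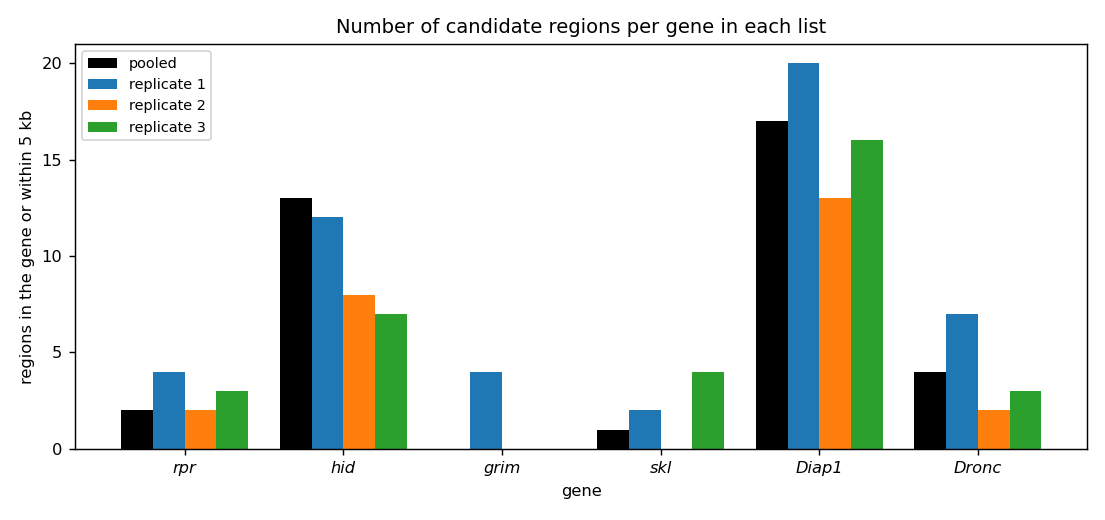
Number of candidate regions in each gene or within 5 kb of it, in the pooled list (black) and in the lists of replicates 1 (blue), 2 (orange) and 3 (green). Diap1 and hid hold the most in every list, and grim has regions in replicate 1 alone.

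The places of the summits are described by counts alone. Regions were taken for lying in or near a gene, and no shares over all regions were computed for location or nearest TSS. Of the 37 member regions, 15 were intergenic, 14 intronic, 5 in coding sequence, 2 in a 5′ UTR and 1 in a noncoding exon. Of the 8 optimal peaks, 5 were intronic and 3 intergenic. The nearest annotated TSS belonged to the member itself for 21 of the 37 and for 4 of the 8. The summit windows of the optimal member peaks, 100 bp to each side, averaged 32.5% GC, against 35.9% over all optimal peaks and 41.4% over all pooled regions.

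Known factor motifs were searched within 100 bp of each summit on both strands. A heat shock element, that is GAA, TTC and GAA with 2 bases between neighbouring units and at most 1 mismatch in the 9 fixed letters, occurred in none of the 8 optimal member peaks. It occurred in 1 of the 37 member regions, a weak one beyond the 3′ end of hid, against 5.18% of all pooled regions and 6.18% of optimal peaks. The GAGA factor motif GAGAGAG occurred in none of the 8 and in 4 of the 37, against 3.32% of all pooled regions. The DREF motif TATCGATA, bound by a factor of replication genes, occurred in none of the 8 and in 1 of the 37, against 2.41%.

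The TATA box TATAAAA, the letters found upstream of many start sites, occurred in 3 of the 8 optimal peaks and in 5 of the 37 member regions, against 11.2% of all pooled regions and 16.1% of optimal peaks. The 3 were the hid peak, the Diap1 intron peak printed above with its match in capitals, and the Diap1 peak in Mbs. With 8 peaks these shares describe the members only, and a match is letters in a window, not a bound site.

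hid, grim, rpr and skl lie in this order in one stretch of 272 kb (chr3L:18167745-18439942). Their windows are 27.9, 11.7, 10.9 and 11.4 kb long. Most of the optimal peaks of the stretch, like most of its length, lay outside these windows. The stretch held 75 pooled regions, 15 of them optimal, or 5.51 optimal peaks per 100 kb against 4.20 over 3L. Of the 15, 2 were the hid and rpr peaks already described. The space of 117 kb between hid and grim held 11 optimal peaks, or 9.40 per 100 kb, of which 10 lay outside the gene windows and 1 was the hid peak. The strongest there, chr3L:18281307-18281563, had a signal of 475 at rank 462, above the hid peak, and the nearest TSS, that of CG5103, was 12853 bp away. The strongest after it and the hid peak, with a signal of 385 at rank 687, lay 1268 bp upstream of lncRNA:CR45937.

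Further along there were fewer optimal peaks. The 93.1 kb between grim and rpr held 3 optimal peaks, the strongest with a signal of 261 at rank 1427. The 40.1 kb between rpr and skl held 1, which was the rpr peak. The replicate lists, which include weak regions, did not all thin in this way. From hid to grim, grim to rpr and rpr to skl, replicate 1 listed 41.9, 29.0 and 27.4 regions per 100 kb, replicate 2 listed 27.3, 18.3 and 19.9, and replicate 3 listed 32.5, 17.2 and 34.9. Replicate 3 was thus densest in the last space. These counts were made after the values were seen, they have no replicate error, and which gene a distant region belongs to cannot be read from its position.

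**Figure D4:**
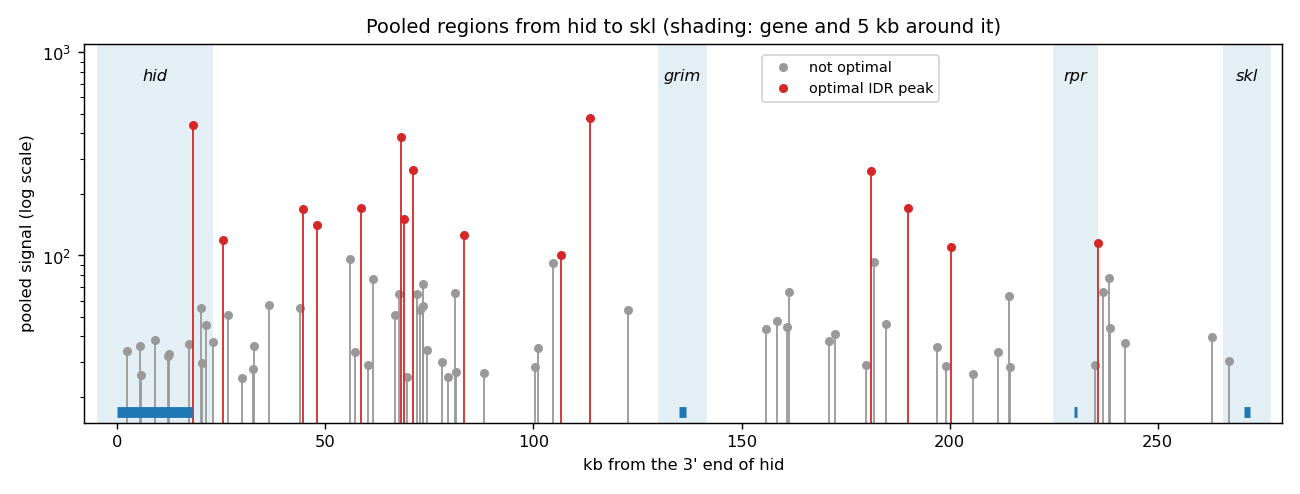
Pooled signal (log scale) of every region against its distance in kb from the 3′ end of hid, through grim and rpr to skl; red are optimal peaks, grey the other regions, blue bars the genes and shading each gene with 5 kb around it. The tallest peaks stand at hid and between hid and grim, and no pooled summit lies in the 33.0 kb around grim.

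The other genes of the pathway were described from 7 lists with 34 genes in all. Of these, 25 had an optimal peak in the gene or within 5 kb, against 53.1% of all genes and 56.7% of protein-coding genes. At a start site, within 500 bp, 9 of 34 had one (26.5%), against 25.9% of protein-coding genes, so start sites of the pathway were near the background. The median signal of the strongest region at a start site, over the 29 genes with one, was 77.2.

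On the effector side, 1 of 6 other caspases had an optimal peak at its start. It was Drice, the main effector caspase, with a signal of 124 at rank 4263. Dredd, a caspase of the immune response, had 73.5, at a region nearer to a TSS of su(sable), and did not pass. None of the 3 genes of the apoptosome and Bcl-2 family passed, and the strongest values were 80.8 for Debcl and 69.4 for Buffy, where the region was nearer to a TSS of Roc2. None of the other 3 genes of the inhibitor family passed either. Diap2 came closest with 96.8 at rank 5772, and Det, also known as deterin, had 86.5.

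Of the pair listed as acting on Diap1, HtrA2, a mitochondrial protease that cleaves it, had a signal of 247 at rank 1566, and morgue, which promotes its turnover, had 37.1. Of 11 damage and TNF pathway genes, 5 passed, but at 3 of them, tefu, lok and mei-41, the strongest start-site region was nearer to a TSS of another gene. p53 had the strongest of these, 330 at rank 963, and tefu, the fly ATM kinase, had 283 at rank 1257, with the nearer TSS that of the chaperone gene Hsc70-4. None of the 4 DNA fragmentation genes passed, with 90.9 for Drep2 and 87.3 for Drep4. The Drep2 region was nearer to a TSS of Mad1, and the Drep4 region to a TSS of Uvrag.

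Of 5 genes for the engulfment of dead cells, 2 passed, namely NimC4, a receptor for dying cells, with 336 at rank 920, and ced-6, an adaptor of the engulfment receptor, with 245 at rank 1584. No start site in these lists reached the 437 of hid.

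**Figure D5:**
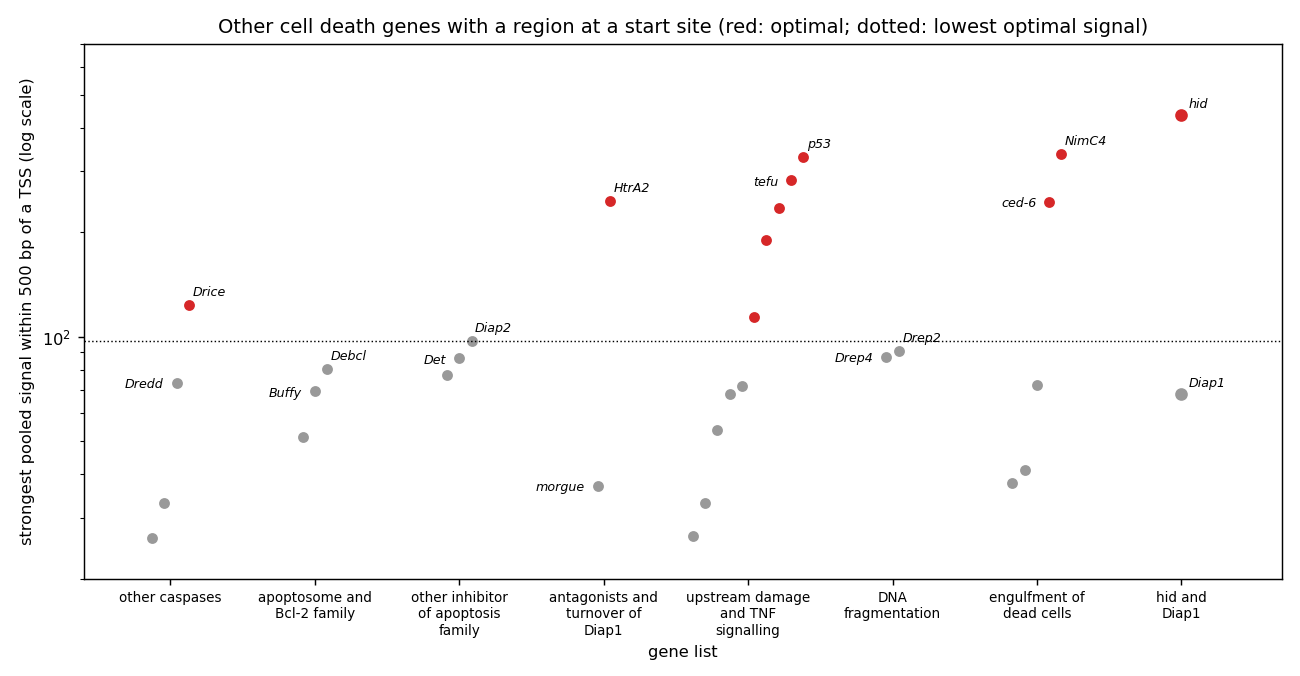
Strongest pooled signal (log scale) within 500 bp of a TSS for each gene of 7 pathway lists that had such a region, with hid and Diap1 at the right; red are optimal peaks, grey the others, and the dotted line is the lowest optimal signal, 97.0. hid stands above all 29 genes plotted from the lists, and Diap2 lies just under the line.

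The peaks elsewhere whose ranks in the 3 replicates were most like those of each member's strongest region were found by the smallest summed difference in log2 rank. For the hid peak it was a peak 125 bp upstream of gb, which encodes a glutamate transporter, with a summed difference of 0.38 and ranks of 755, 367 and 552. For the strongest Diap1 peak it was one 220 bp upstream of bowl, a zinc finger factor gene, with a difference of 0.27. For Dronc it was one 15 bp upstream of CCT1, a chaperonin subunit gene, with a difference of 0.13. The rpr peak was matched by an intron peak of CG8745, with a difference of 0.48 and ranks of 2159, 5100 and 17540. The likeness is in rank over 3 samples only.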

How the data were processed

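Whole-embryo Hsf-GFP ChIP-seq was deposited as narrowPeak lists for 3 biological replicates, for the pooled replicates, and for the optimal IDR peaks. The authors deposited a signal per region and a −log10 q value per region, both on scales of their own in each list. Chromatin was sheared to 200 to 800 bp, per the labels. Which aligner and caller produced them is not given in the sources used here. The dm6 lists were analysed, and the dm3 lists were not used here. Depth is unknown, so no precision can be given per region.

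A region was assigned by its summit to a gene and 5 kb around it in Ensembl release 115 models (annotation 6.54), transposons left out. Regions were ranked by signal. The optimal list was exactly the 5756 pooled regions of highest signal. A start-site region had its summit within 500 bp of any annotated TSS, and regions sharing 1 bp counted as overlapping. Shares over all genes or regions served as background, except for summit location, nearest TSS and replicate regions that overlapped no pooled region. No p-value was computed because there is 1 group. Sequences came from the RefSeq release 6 genome (dm6), in which all 6 members have the same coordinates. Windows of 100 bp each side of the summit were searched for motifs, except that the p53 family element was searched over whole regions.

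All members were named, as were the 2 genes of each pathway list with the highest signal at a TSS, and the gene nearest to the region whose ranks were most like the strongest of each member. The members and lists were chosen with earlier results of these data known. Alternatives were other windows, TSS distances, overlaps, motif windows, replicate subsets and, added after seeing the data, backgrounds by gene length and coding status, the p53 element and the hid to skl stretch. The counting scripts were tested on simulated data. Python 3.11.15, numpy 2.4.6, pandas 2.3.3 and matplotlib 3.10.9 were used.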

Additional observations from a re-analysis of the deposited data

How the results depend on the processing

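Of 57 alternatives run, 35 gave counts within 1.5 times the reported count, or ranks within 1 SD of the replicates' own ranks. The other 22 did not. Counts and ranks in 1 group have no direction that an alternative could reverse. With summits in the gene body only, the members held 17 regions and 3 optimal peaks, all 3 in Diap1, which left 1 gene with a peak, and the best rank at hid was 16417. Keeping only optimal peaks above the median optimal signal of 167 left 4 peaks in 2 genes. The hid peak was the only one at a start site within 500 bp, with 0 genes at 200 bp; 2 genes had one within 1000 bp. The stricter rule that a peak be among the 5756 strongest in both remaining replicates kept 4 to 6 peaks in 2 to 3 genes: 4 in 2 genes without replicate 1, 5 in 2 without replicate 2 and 6 in 3 without replicate 3. The optimal list itself was not rebuilt, so these peaks still came from a list drawn from all 3 replicates. Within 10 kb, the best rank at skl was 15879. The best rank of a member in a single replicate's list moved to 7903 for rpr in replicate 3 and 751 for hid in replicate 1. It moved to 10118 and 16239 for skl in replicates 1 and 3, and to 799 for Diap1 in replicate 2. For Dronc it moved to 5085 and 4970 in replicates 1 and 2. The strongest region of a window can differ between lists, so these best ranks do not follow single peaks. The 7903 of rpr lay 54 bp downstream of its TSS, whereas the rpr peak ranked 15217 in replicate 3. Both skl ranks belonged to regions other than its pooled one. The best Dronc rank in replicate 3, 4847, was also another region, and the Dronc peak ranked 7178 there. Searching 250 bp each side gave 1 optimal peak with a heat shock element and 1 with a GAGA factor motif. At that width, 12.7% and 12.1% of all optimal peaks had these motifs, so 1 of 8 was near the background. The cause of these moves was not tested, beyond the narrower or wider windows themselves. No paired analysis was possible because there is 1 group.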
